A study of Mus musculus with 51 samples.

Results

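Spinal cord libraries of mice killed 22 days after paclitaxel were compared with spinal cord libraries of mice killed 1 day after paclitaxel. The 6 libraries, 3 at each time, were chosen by their titles from the 51 libraries of a study of hind paw, dorsal root ganglia and spinal cord. All 6 came from male C57 mice, aged 8 to 12 weeks, that had received paclitaxel (PTX) at 2 mg/kg by intraperitoneal injection, with 2 injections 1 day apart. PTX, used against tumours, blocks the disassembly of microtubules, and pain from damaged sensory nerves is a common side effect. The labels give the same treatment to both groups and give no vehicle group for day 22, so time since the drug, age and collection day cannot be told apart. The titles place the early group at day 1, whereas the series description speaks of 2 days, and the titles were followed. Nothing in the labels ties each library to its own animal, so p-values measure only spread between libraries. That spread was estimated from all 21 spinal cord libraries and not from these 6 alone. Another 3 libraries, from day 35 after the same treatment, form set B together with these 6. The other 12 spinal cord libraries, PTX or vehicle at days 1 and 7 with 3 libraries each, are called set A.

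The lumbar spinal cord relays sensory input from the limbs and holds neurons, oligodendrocytes that make central myelin, astrocytes, microglia and blood vessels with a tight barrier. Glucocorticoid hormones are released in stress and in a daily rhythm, enter these cells and act through a receptor that binds DNA and turns on genes such as Fkbp5, Sgk1 and Per1. Border macrophages are the resident phagocytes of the meninges and perivascular spaces, distinct from the microglia of the tissue itself.

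The 6 libraries held 17661067 to 21304067 reads assigned to genes. In CPM, which scales reads by library size, 12 neuronal markers summed to 18880, 15738 and 15325 at day 22, against 15088, 10793 and 16413 at day 1. Hoxc10, a position gene of the lumbar cord, measured 118, 113 and 110 CPM at day 22, against 95.2, 83.6 and 111 CPM at day 1. The 10 markers of sensory ganglion neurons summed to no more than 14.9 CPM in any day 22 library and 17.9 CPM in any day 1 library. Each day 1 library stood apart in a different group of genes. Day 1 replicate 1 held 10 skeletal muscle markers at 1019 summed CPM, against 11.3 to 109 at day 22, and it held Slc6a5, the glycine transporter of inhibitory neurons, at 122 CPM, against 1.29 to 3.41 CPM in the other 5 libraries. Day 1 replicate 2 held 10 Schwann cell and nerve root markers at 17440 summed CPM, against 2051 and 2429 in the other day 1 libraries and 983 to 2241 at day 22. Day 1 replicate 3 was highest in interferon-response genes, at 429 summed CPM. Among the day 22 libraries, replicate 1 measured 98.4 CPM for Hoxb8, another position gene, against 229 and 301 in replicates 2 and 3. Its 12 excitatory dorsal horn markers averaged 3.19 in log2 CPM, against 4.43 in both other day 22 libraries and 4.29 to 4.50 at day 1. Its 11 inhibitory neuron markers averaged 4.40, against 5.26 and 5.20, and 4.92 to 5.59 at day 1. Its 15 oligodendrocyte and myelin markers summed to 34500 CPM, against 27843 and 27626 in replicates 2 and 3. In bulk tissue, fewer cells of a type and less RNA per cell cannot be told apart.

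**Figure D1:**
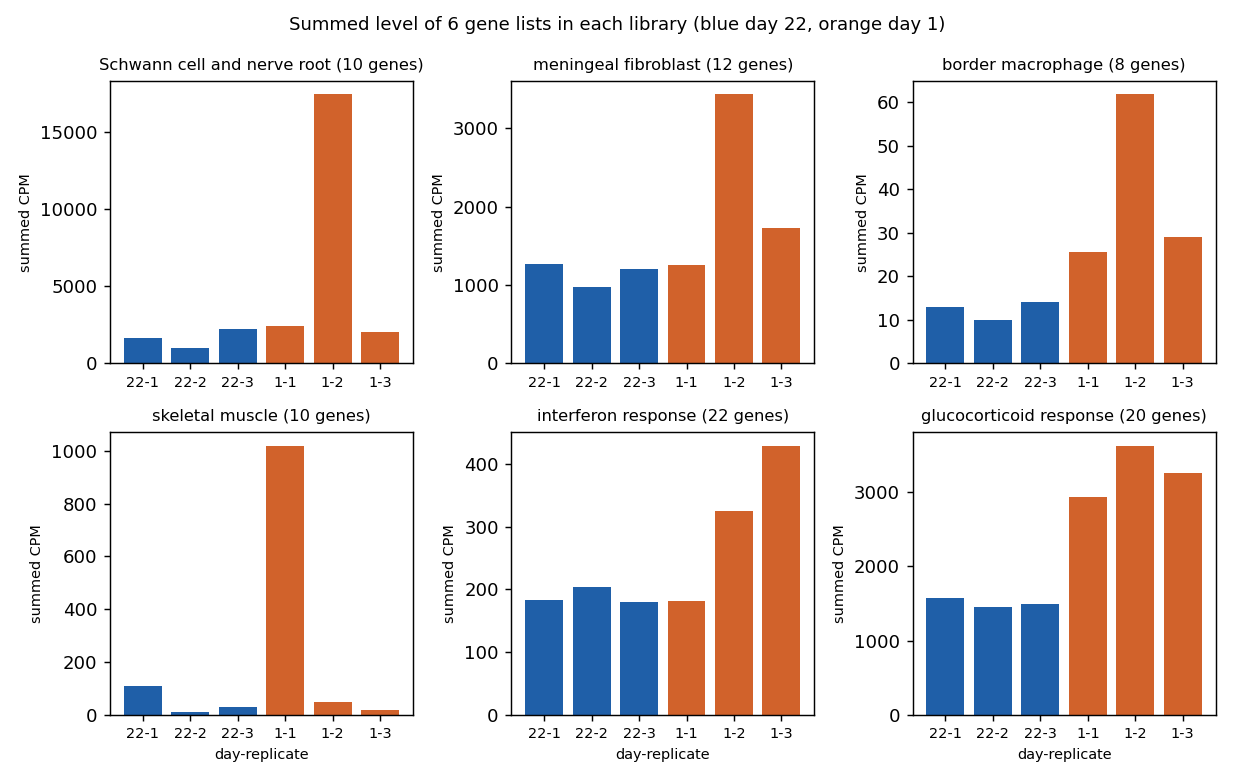
Summed CPM (y axis) of 6 gene lists in each of the 6 libraries (x axis, day-replicate), with day 22 in blue and day 1 in orange. The nerve root, meningeal and border macrophage lists peak in day 1 replicate 2, at 17440, 3433 and 61.7 CPM, the muscle list peaks in day 1 replicate 1, and the glucocorticoid list is higher in all 3 day 1 libraries (2941 to 3627) than in the day 22 libraries (1454 to 1572).

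More genes were lower than higher at day 22. Of 15815 genes tested, 172 (1.09%) passed edgeR's quasi-likelihood test at a Benjamini-Hochberg adjusted p under 0.05, with 141 lower at day 22 (0.892%) and 31 higher (0.196%). The median log2 fold change over all genes was -0.03. Of the genes called lower, 64 fell by over 2-fold, while 6 of those called higher exceeded 2-fold. The 172 called genes had no overlap between the 3 day 22 and the 3 day 1 libraries, a pattern that 8.14% of all genes showed in the lower and 6.22% in the higher direction. The calls rest on single libraries in part. Genes called lower numbered 57, 65 and 81 without day 22 replicate 1, 2 and 3, and 89 without day 1 replicate 2, while genes called higher numbered 4 and 17 without day 22 replicate 1 and 2.

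**Figure D2:**
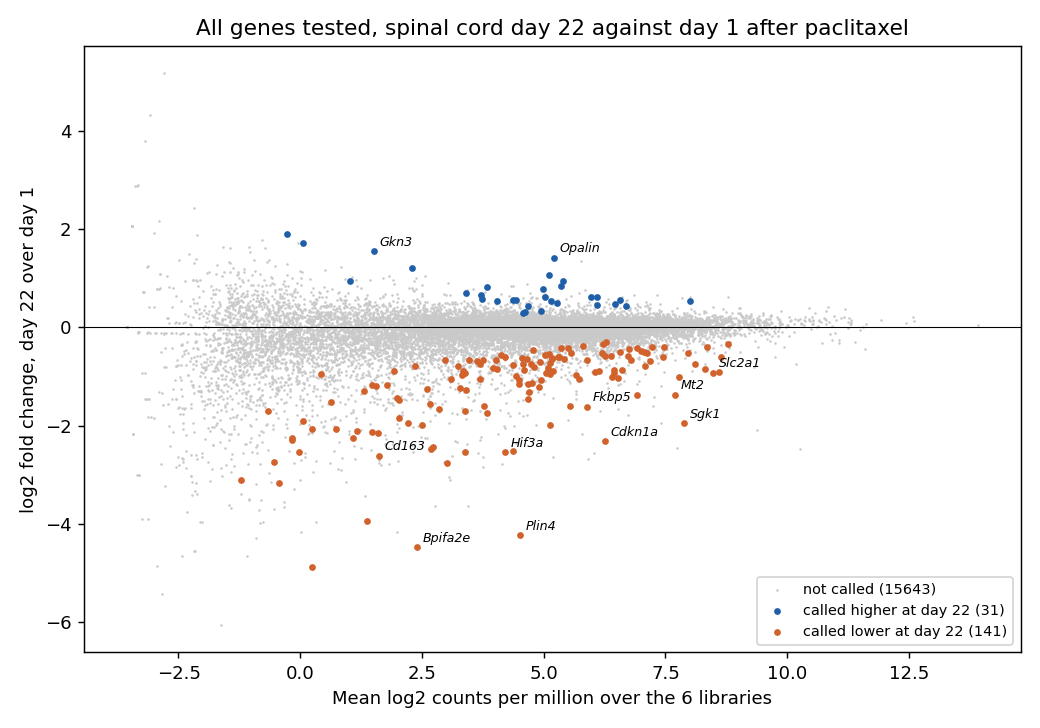
Mean log2 CPM over the 6 libraries (x axis) against the log2 fold change of day 22 over day 1 (y axis) for the 15815 genes tested, each a point. Blue points are the 31 genes called higher and orange points the 141 called lower, and the labelled Plin4 and Bpifa2e lie at -4.23 and -4.48.

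Genes that glucocorticoids turn on were lower at day 22 as a group. All 20 of the 20 list members had a negative log2 fold change, 13 were called lower and 0 higher, against 0.892% of all genes called lower, and the median of the list was -1.49, against -0.03 over all genes. In each of the 20 genes the 3 day 22 libraries lay below the 3 day 1 libraries, against 8.14% of all genes. Between 9 and 15 members were called when 1 library was left out, and all 20 members stayed negative under every one of the 18 alternatives tried. The list was chosen with earlier results of these data known, and it is not independent evidence of its direction.

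Plin4, a coat protein of lipid droplets, fell the most among the list members. It measured 5.01, 4.68 and 6.13 CPM at day 22, against 123, 79 and 96.4 CPM at day 1. Every day 22 library lay more than 10-fold below every day 1 library. The log2 fold change was -4.23 ± 0.34 (SE, n = 3 each, edgeR quasi-likelihood with Benjamini-Hochberg adjusted p = 4.98e-06). Plin4 was also a member of a fat cell list, of which it was the 1 called gene among 7 tested, against 0.892% of all genes called lower. Adipoq, the defining hormone gene of fat cells, measured 0.111, 0.153 and 0.187 CPM at day 22, against 0.22, 0.391 and 0.113 CPM at day 1. Plin4 was called in all 18 alternatives tried, with log2 fold changes of -4.49 to -4.05.

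Fkbp5 encodes a co-chaperone that restrains the glucocorticoid receptor and is one of its best known targets. It measured 34.6, 32.7 and 34.5 CPM at day 22, against 95.5, 106 and 111 CPM at day 1, and the groups did not overlap. The difference was -1.62 ± 0.19 on the log2 scale (edgeR adjusted p = 0.000203). Cdkn1a, the cell cycle inhibitor p21 and a target of both the glucocorticoid receptor and p53, measured 36.6, 29.8 and 37.7 CPM at day 22, against 118, 231 and 172 CPM at day 1. This was a log2 fold change of -2.32 ± 0.34 (edgeR adjusted p = 0.00203). The highest Cdkn1a value came from day 1 replicate 2, the library rich in nerve root markers, and without that library the adjusted p was 0.0105, within a range of 0.00123 to 0.0201 over the 6 leave-outs. With only the 9 libraries of set B in the edgeR fit, Cdkn1a was not called (adjusted p = 0.0510).

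Sgk1, a kinase that controls ion transport, was outside the rule for named genes and was chosen after its values were seen. It measured 130, 143 and 91.2 CPM at day 22, against 451, 481 and 477 CPM at day 1. The 3 day 1 values lay close together, and the day 22 values, led by replicate 2, spread more. The log2 fold change was -1.95 ± 0.37 (edgeR adjusted p = 0.0131), with adjusted p between 0.0269 and 0.0847 on leaving out each library, above 0.05 without day 22 replicate 1 (0.0735) or 3 (0.0847). Its relative Sgk3 had the smallest p of all genes and was chosen after its values were seen. Sgk3 measured 17, 15.8 and 13.6 CPM at day 22, against 43.5, 36.2 and 47.6 CPM at day 1, a log2 fold change of -1.46 ± 0.10 (edgeR adjusted p = 1.05e-06).

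Mt2 and Mt1 encode metallothioneins, small proteins that bind metals. Mt2 measured 136, 117 and 139 CPM at day 22, against 259, 412 and 342 CPM at day 1, a log2 fold change of -1.37 ± 0.14 (edgeR adjusted p = 7.68e-05). Mt1 fell by 0.86 ± 0.15 (edgeR adjusted p = 0.0056). Arrdc2, an arrestin-domain gene, fell by 1.60 ± 0.18 on the log2 scale. Map3k6, a stress kinase, measured 3.56, 5.09 and 4.4 CPM at day 22, against 21.4, 29.5 and 24.8 CPM at day 1, a log2 fold change of -2.53 ± 0.34. Errfi1, an inhibitor of the EGF receptor, fell by 0.79 and Nfkbia, the inhibitor of NF-kB, by 0.96. Ddit4, an inhibitor of mTOR, was called at an adjusted p of 0.0246, but its adjusted p on leaving out each library was 0.0282 to 0.135, and only the fit without day 1 replicate 1 kept the call. Sult1a1, a sulfotransferase, and Angptl4, an inhibitor of lipoprotein lipase, had their highest values in day 1 replicate 2 (94.9 and 27.7 CPM), and without that library the adjusted p was 0.118 and 0.0792. Both also lost the call without day 22 replicate 1 (0.112 and 0.106) or 2 (0.119 and 0.0831), and Sult1a1 without day 22 replicate 3 (0.0923). Over the 6 leave-outs the adjusted p was 0.0128 to 0.119 for Sult1a1 and 0.0101 to 0.106 for Angptl4.

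The 7 list members that were not called had log2 fold changes of -2.26 to -0.24. Tsc22d3, the anti-inflammatory factor GILZ, measured 273, 231 and 238 CPM at day 22, against 343, 497 and 400 CPM at day 1 (log2 fold change -0.74 ± 0.18, edgeR adjusted p = 0.0551). Per1, a clock gene and a direct glucocorticoid target, measured 81.2, 100 and 89.7 CPM at day 22, against 127, 214 and 156 CPM at day 1 (-0.87 ± 0.23, edgeR adjusted p = 0.0891). Zbtb16 was -2.26 ± 0.63 with a single high library at day 1 (116 CPM in replicate 1, against 29.1 and 29.6 in replicates 2 and 3).

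**Figure D3:**
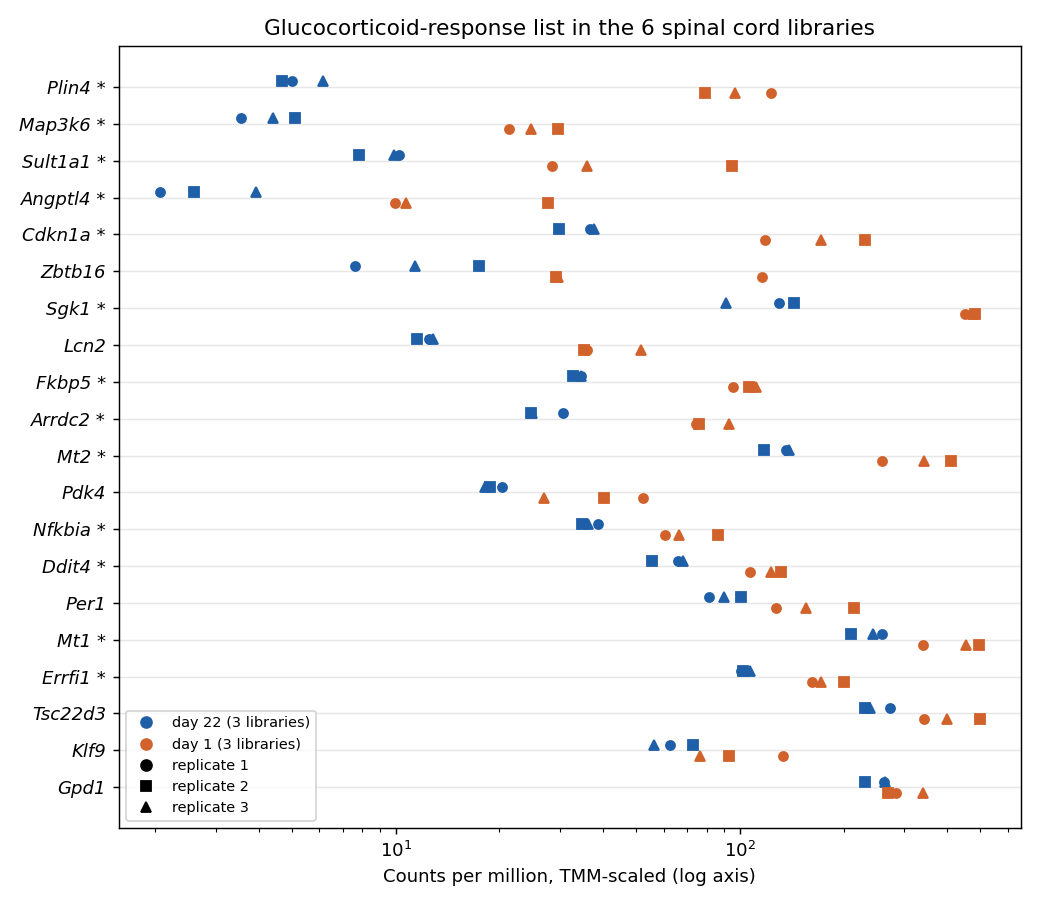
CPM on a log axis (x) for the 20 glucocorticoid-response genes tested (y), with the day 22 libraries in blue above the day 1 libraries in orange, marker shapes giving the replicate number and an asterisk the 13 called genes. In every row the blue markers lie left of the orange ones, by the most in Plin4 and by the least in Gpd1.

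Promoters of 3 genes are shown because they hold a site of the glucocorticoid receptor or of another factor that signals activate. Promoters of 250 bases before to 50 after each start site came from RefSeq (GRCm38.p6), and 12 of the 13 called list members matched. The glucocorticoid element, searched on both strands as AGAACA, any 3 bases and TGTTCT, was found in 3 of 27025 genes with a promoter (0.0111%), and 1 of these 3 was Sgk1. It stood at 1 of the Sgk1 start sites, on chr10:21993640-21993939 (plus strand), 189 bases before the start. The element is in capitals.
Sgk1: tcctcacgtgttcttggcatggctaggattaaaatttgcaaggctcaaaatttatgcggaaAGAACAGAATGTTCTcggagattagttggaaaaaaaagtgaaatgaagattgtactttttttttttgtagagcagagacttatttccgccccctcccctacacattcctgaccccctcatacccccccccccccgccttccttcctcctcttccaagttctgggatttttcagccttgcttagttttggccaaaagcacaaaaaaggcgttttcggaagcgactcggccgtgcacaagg
Its single arm AGAACA, also searched on both strands, was found in 2 of the 12 list members (16.7%) and in 21.3% of all genes with a promoter. Of the 111 called-lower genes with a promoter, 22 held this arm (19.8%). The cyclic AMP response element TGACGTCA is bound by the activator CREB and is the same on both strands. It was in 6 of the 111 called-lower genes with a promoter (5.41%), against 2.03% of the 27025 genes with a promoter. Dusp1, a phosphatase that switches off MAP kinases, carried it on chr17:26508423-26508722 (minus strand), and Errfi1 on chr4:150854820-150855119 (plus strand). The elements are in capitals.
Dusp1: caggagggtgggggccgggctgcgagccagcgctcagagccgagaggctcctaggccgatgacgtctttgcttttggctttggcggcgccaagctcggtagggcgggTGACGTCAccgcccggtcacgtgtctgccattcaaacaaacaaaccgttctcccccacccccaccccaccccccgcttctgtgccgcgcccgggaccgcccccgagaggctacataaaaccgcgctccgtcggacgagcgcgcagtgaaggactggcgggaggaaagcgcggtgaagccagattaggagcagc
Errfi1: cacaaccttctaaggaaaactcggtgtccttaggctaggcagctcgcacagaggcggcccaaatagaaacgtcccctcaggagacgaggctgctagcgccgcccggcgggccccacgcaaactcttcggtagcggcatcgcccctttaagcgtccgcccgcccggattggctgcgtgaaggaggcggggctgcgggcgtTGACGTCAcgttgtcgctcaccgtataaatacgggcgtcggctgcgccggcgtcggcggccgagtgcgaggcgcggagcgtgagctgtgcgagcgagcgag
The E-box CACGTG, the site of clock factors, is also the same on both strands. It was in 16 of the 111 called-lower genes (14.4%), against 8.09% of the 27025 genes with a promoter. The E-box was also in 3 of the 27 called-higher genes with a promoter (11.1%). In the cholesterol synthesis list, 4 of the 14 genes with a promoter held it (28.6%). The 27025 include genes not tested in the cord, so the called genes and this background are unlike sets. These counts describe letters in this window and say nothing of binding.

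Dusp1 belonged to the list of immediate early genes, which neurons and glia switch on within minutes of a stimulus. It measured 21.2, 18.6 and 23.6 CPM at day 22, against 34.3, 38.6 and 37.5 CPM at day 1 (log2 fold change -0.80 ± 0.10, edgeR adjusted p = 0.000498). Nr4a1, an orphan nuclear receptor, was the other called member of the 18, at -1.22 ± 0.28 (edgeR adjusted p = 0.0484). Its day 1 values of 30.6, 74.7 and 36.6 CPM were led by replicate 2, and it lost the call under most settings, with adjusted p of 0.0153 to 0.262 on leaving out each library, above 0.05 without day 1 replicate 2 (0.262) and without day 22 replicate 1 (0.258), 2 (0.142) or 3 (0.101). The 2 called of 18 stand against 0.892% of all genes called lower. Of the 18 members 17 were negative, and the median was -0.59.

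Of 19 clock genes 1 was called lower, against 0.892% of all genes, and the median was -0.10. It was the repressor gene Per2, at 21.1, 26.6 and 25.2 CPM at day 22, against 52.7, 49.6 and 36.2 CPM at day 1 (log2 fold change -0.92 ± 0.18, edgeR adjusted p = 0.0171). Leaving out each library gave Per2 adjusted p of 0.00953 to 0.123, under 0.05 only without day 1 replicate 3. The activator gene Arntl, chosen after its values were seen, measured 23.8, 24.2 and 24.5 CPM at day 22, against 20.4, 21.7 and 20.2 CPM at day 1 (0.22 ± 0.18, edgeR adjusted p = 0.597). Nr1d1, which represses Arntl, was also not called (-0.19 ± 0.15, edgeR adjusted p = 0.599).

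Some metabolic genes were chosen after their values were seen and belong to no list, and others of lipid metabolism were called higher. Pnpla2, the enzyme that begins the release of fatty acids from fat droplets, measured 57.1, 47.4 and 52.6 CPM at day 22, against 79.5, 101 and 109 CPM at day 1 (log2 fold change -0.88 ± 0.11, edgeR adjusted p = 0.000498). Adipor2, a receptor for adiponectin, was -1.01 ± 0.12, and Xdh, which makes uric acid, was -1.74 ± 0.21. Slc38a2, an amino acid transporter, measured 213, 214 and 212 CPM at day 22, against 414, 324 and 330 CPM at day 1 (-0.74 ± 0.12, edgeR adjusted p = 0.00298). Mat2a, Gpt2 and Prodh, which handle methionine, alanine and proline, were also called lower. With only the 6 libraries in the fit, Pnpla2, Slc38a2, Mat2a, Gpt2 and Prodh lost their calls, while Adipor2 and Xdh kept theirs.

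Of 8 border macrophage markers, 3 were called lower, against 0.892% of all genes, and the median was -1.26. Cd163, the haemoglobin scavenger receptor, measured 1.39, 1.22 and 1.22 CPM at day 22, against 4.67, 13.7 and 5.18 CPM at day 1 (log2 fold change -2.62 ± 0.46, edgeR adjusted p = 0.00657). Lyve1, a hyaluronan receptor, was -2.13 ± 0.38 and F13a1, a clotting factor subunit, -1.66 ± 0.32. Day 1 replicate 2 was highest in all 3 genes, and its meningeal fibroblast markers summed to 3433 CPM, against 1261 and 1726 in the other day 1 libraries and 977 to 1263 at day 22. Without that library Cd163 and Lyve1 were called (adjusted p = 0.033 and 0.0399) and F13a1 was not (0.0876), and with the mean of the nerve root list as a covariate, chosen after seeing the data, 3 of the 8 were called. With the spread estimated from the 6 libraries alone, 0 of the 7 then tested were called by edgeR. The call of F13a1 was also lost without day 22 replicate 1 (0.0836) or 2 (0.0985), and that of Lyve1 without day 22 replicate 1 (0.0641) or 2 (0.0561). The phagocyte receptor gene Mertk, chosen after its values were seen, measured 15.8, 18.6 and 15.1 CPM at day 22, against 47.5, 46.7 and 29 CPM at day 1 (-1.31 ± 0.20, edgeR adjusted p = 0.00298). The Mertk call was lost with only the 6 libraries in the fit. Of 14 microglial markers 0 were called by edgeR, DESeq2 or limma voom, 2 had an unadjusted edgeR p under 0.05, and the median was 0.16.

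Of 14 endothelial and barrier markers 3 were called lower, against 0.892% of all genes, with a median of -0.25. Slc2a1, the glucose transporter of the blood-brain barrier, measured 274, 244 and 263 CPM at day 22, against 436, 507 and 537 CPM at day 1 (log2 fold change -0.92 ± 0.16, edgeR adjusted p = 0.00517). Mfsd2a, a lipid transporter of barrier endothelium, was -0.87 ± 0.15 (edgeR adjusted p = 0.0046). Ly6a, a surface marker of endothelium that interferon raises, was -0.83 ± 0.19, with adjusted p of 0.0241 to 0.14 on leaving out each library, above 0.05 without day 1 replicate 3 (0.0895) or without day 22 replicate 1 (0.139), 2 (0.14) or 3 (0.125). Pecam1 and Cldn5, 2 other vessel markers, were not called, at -0.33 and 0.45. The list's members thus lay on both sides of 0, with 9 negative and 5 positive.

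Interferon-response genes differed between the day 1 libraries. All 22 members were negative, the median was -0.91, and 1 gene, Irf9, part of the factor that carries interferon signals, was called lower, against 0.892% of all genes, at -0.74 ± 0.16 (edgeR adjusted p = 0.0324). Irf7, the master factor of the response, measured 3.84, 4.84 and 4.54 CPM at day 22, against 3.02, 11.2 and 31.2 CPM at day 1, so that day 1 replicate 1 lay below every day 22 library. Without day 1 replicate 1, 11 of the 22 were called lower, where 190 of all 15981 genes then tested were, Irf9 among them (adjusted p = 0.000734). Without any one of the other 5 libraries Irf9 was not called, with adjusted p of 0.0865 to 0.171.

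Of 14 unfolded protein response genes 2 were called lower, against 0.892% of all genes, 12 were negative and the median was -0.33. Hspa5, the main chaperone, and Pdia4, which forms disulfide bonds, were the called members, at -0.60 ± 0.13 and -0.53 ± 0.11 (edgeR adjusted p = 0.0218 for both). Neither was called without day 1 replicate 2 (adjusted p = 0.114 and 0.125) or without day 22 replicate 1 (0.138 for both) or 2 (0.107 for both), and Hspa5 also lost the call without day 22 replicate 3 (0.0522). Hif3a, a hypoxia-response factor, measured 5.56, 8.71 and 8.89 CPM at day 22, against 57.3, 35.8 and 41.9 CPM at day 1, a log2 fold change of -2.54 ± 0.28 (edgeR adjusted p = 0.000133). Of the 13 genes in the hypoxia list, which does not hold Hif3a, the 1 called was Slc2a1, against 0.892% of all genes called lower. The median of that list was -0.12. Fmo2, a drug-oxidising enzyme, measured 3.34, 3.77 and 2.62 CPM at day 22, against 16.7, 36.8 and 12.3 CPM at day 1 (-2.76 ± 0.39, edgeR adjusted p = 0.00132). The highest Fmo2 value came from day 1 replicate 2. Its call was lost with only the 6 libraries or only the 9 of set B in the edgeR fit (adjusted p up to 0.106). Hr, a corepressor of nuclear receptors, was -1.38 ± 0.17 (edgeR adjusted p = 0.000372).

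Bpifa2e and Smr3a, genes of salivary glands, were also called lower. Bpifa2e measured 1.5, 1.07 and 1.22 CPM at day 22, against 31.4, 47 and 5.97 CPM at day 1. Both genes were also present in set A, where Bpifa2e ranged over 27.6 to 211 CPM. Their log2 fold changes were -4.48 ± 0.92 and -3.94 ± 0.86 (edgeR adjusted p = 0.0222 and 0.0328). Bpifa2e was called without day 1 replicate 1 or 3 and in no other of the 6 leave-outs (adjusted p of 0.00825 to 0.124). Smr3a was called without day 1 replicate 3 and in no other (0.0149 to 0.181).

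**Figure D4:**
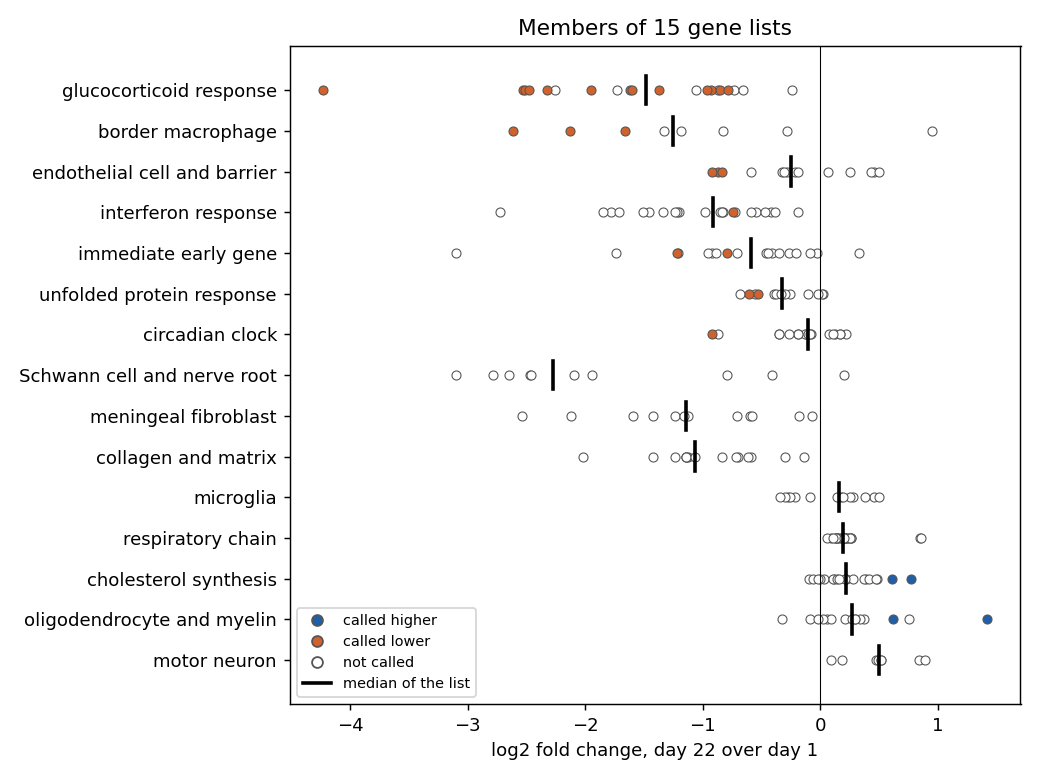
Log2 fold change of day 22 over day 1 (x axis) for each tested member of 15 gene lists (y axis), with blue for called higher, orange for called lower, white for not called and a bar at the list median. The glucocorticoid list holds 13 orange points, the oligodendrocyte and cholesterol lists 2 blue points each, and the nerve root and meningeal lists have 0 called, with 9 of 10 and 12 of 12 points left of 0.

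Among the 31 genes called higher were members of the oligodendrocyte and cholesterol lists. Of 15 oligodendrocyte and myelin genes, 2 were called higher, against 0.196% of all genes, and 12 were positive. Opalin, a membrane protein of mature oligodendrocytes, measured 66.8, 56.1 and 59.8 CPM at day 22, against 22, 23 and 23.2 CPM at day 1 (log2 fold change 1.42 ± 0.27, edgeR adjusted p = 0.0122). The groups did not overlap. Aspa, which splits N-acetylaspartate for myelin lipids, rose by 0.62 ± 0.12. The adjusted p on leaving out each library was 0.0353 to 0.0647 for Opalin and 0.0183 to 0.0943 for Aspa. Opalin lost its call without day 1 replicate 2 (adjusted p = 0.0519) or day 22 replicate 1 (0.0647), and Aspa without day 22 replicate 1 (0.0943). The Opalin call was also lost with the nerve root covariate, chosen after seeing the data. The list's summed level was 27626 to 34500 CPM at day 22 and 26720 to 28949 CPM at day 1, and only day 22 replicate 1 exceeded the day 1 range.

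Of 20 cholesterol synthesis genes, 2 were called higher, against 0.196% of all genes, and 17 were positive, against 7091 of the 15815 genes tested. The median was 0.22. Mvd, which makes isopentenyl pyrophosphate, measured 47.2, 37 and 40.2 CPM at day 22, against 22, 25.3 and 25.4 CPM at day 1 (log2 fold change 0.77 ± 0.15, edgeR adjusted p = 0.0139). Dhcr7, the last enzyme of the pathway, rose by 0.61 ± 0.11. With adjusted p on leaving out each library of 0.0279 to 0.103 for Mvd and 0.018 to 0.0802 for Dhcr7, neither was called without day 22 replicate 1 (0.103 and 0.0802), and Mvd was also lost without day 1 replicate 1 (0.0514). Wnt7a, a ligand that acts on brain vessels and oligodendrocyte precursors, measured 16.6, 19.2 and 20.8 CPM at day 22, against 10.2, 12.4 and 9.4 CPM at day 1 (0.83 ± 0.15, edgeR adjusted p = 0.00699). Wnt7a was not called with only the 6 libraries or only the 9 of set B in the fit. Serpinb1a, a protease inhibitor, and Fgfrl1, a receptor that binds fibroblast growth factors, rose by 0.95 ± 0.17 and 0.85 ± 0.15, and both lost their call without day 22 replicate 1 (0.0524 and 0.0545). Trim59, a ubiquitin ligase, was 1.06 ± 0.23, and it was called without day 1 replicate 1 but in no other of the 6 leave-outs (adjusted p of 0.046 to 0.14). Gkn3, a gastrokine of arterial endothelium, measured 5.62, 3.46 and 5.62 CPM at day 22, against 1.48, 2.46 and 1.07 CPM at day 1 (1.55 ± 0.36, edgeR adjusted p = 0.0411). It was called without day 1 replicate 2 or day 22 replicate 2 and in no other leave-out (0.033 to 0.187).

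In both lists that follow, edgeR, DESeq2 and limma voom called 0 members. All 23 nuclear-encoded respiratory chain genes were positive, with a median of 0.20 and 6 at an unadjusted edgeR p under 0.05, but 8 turned negative without day 1 replicates 1 and 2 together, an alternative chosen after seeing the data. The 8 motor neuron genes were positive, with a median of 0.50 and 1 at an unadjusted edgeR p under 0.05, and day 22 replicate 1 held the highest summed level (485 CPM, against 270.0 and 268 CPM in day 22 replicates 2 and 3). Without day 1 replicate 2, 2 of the 8 turned negative.

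For most called genes, the day 35 mean of the same set lay between those of day 1 and day 22. Of the 141 genes called lower, 125 had a day 35 mean between the other 2 means, as did 30 of the 31 called higher and 18 of the 20 list members. Set B shares its day 1 libraries between the comparisons, so this is a description. The called genes were selected for day 22 and day 1 values far apart, which by itself favours a mean in between. The share over all genes was not counted. Against day 1, day 35 had 12 of the 141 called lower and 0 of the 31 called higher. Over all genes 13 were called lower and 1 higher in that comparison. Sgk1 measured 451 to 481 CPM at day 1, 91.2 to 143 CPM at day 22 and 333 to 378 CPM at day 35. Plin4 measured 79 to 123 CPM at day 1, 4.68 to 6.13 CPM at day 22 and 9.09 to 17.2 CPM at day 35. Per2 measured 36.2 to 52.7 CPM at day 1, 21.1 to 26.6 CPM at day 22 and 39.4 to 58 CPM at day 35.

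**Figure D5:**
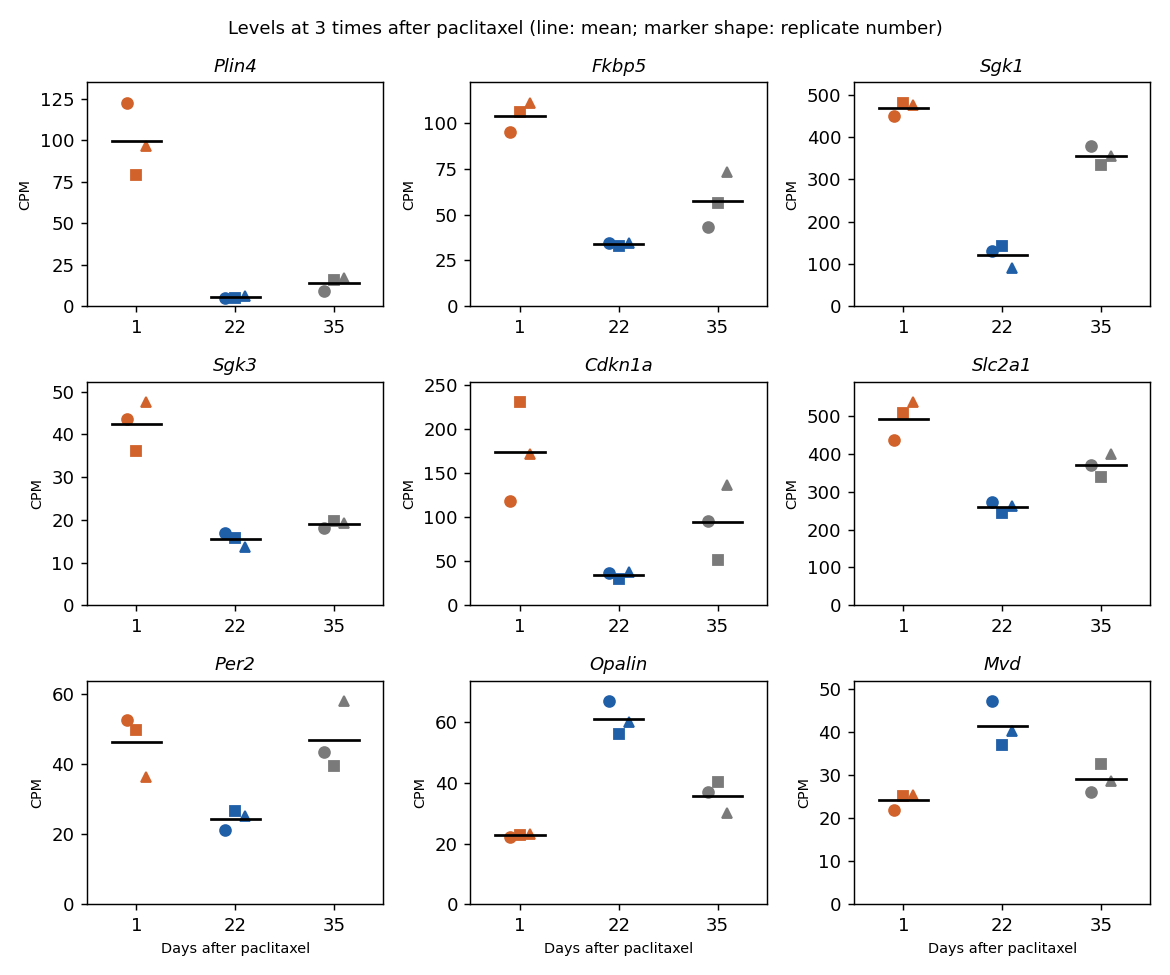
CPM (y axis, from 0) of 9 genes at days 1, 22 and 35 after paclitaxel (x axis), with 1 marker for each of 3 libraries, shaped by replicate number, and a line at the mean. Plin4 and Sgk3 stayed low at day 35, Sgk1 lay at 333 to 378 CPM and Per2 at 39.4 to 58 CPM, and Opalin and Mvd were highest at day 22.

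Set A shares no library with set B and also compares an early with a later day. There 100 of the 141 genes were called lower at PTX day 7 than at PTX day 1, against 22.7% of all genes called lower there, and 37 of the 141 at vehicle day 7 than at vehicle day 1, against 11% of all genes. Of the 31 genes called higher, 19 were called higher at PTX day 7 than at PTX day 1 (22.2% of all genes) and 3 at vehicle day 7 than at vehicle day 1 (8.69%). Of the 13 called glucocorticoid list members, 12 were called lower in the PTX and 6 in the vehicle comparison. Fkbp5 measured 26.5 to 31.4 CPM at PTX day 7 and 77.9 to 94.8 at PTX day 1, and 33.2 to 43.3 CPM at vehicle day 7 and 28.5 to 47.4 at vehicle day 1. The sets differed at PTX day 1, where 55 of the 141 were called higher in set B than in set A and 4 lower. Of all 15815 genes, 2928 were called higher and 2282 lower there. Sgk3 measured 36.2 to 47.6 CPM at PTX day 1 in set B. In set A it measured 17.9 to 18.8 CPM at PTX day 1 and 14.2 to 17.3 CPM at PTX day 7. Plin4 measured 79 to 123 CPM at PTX day 1 in set B and 16.3 to 19.5 CPM in set A. For Fkbp5 the sets were not called different at that day. Of the 6 set A day 1 libraries, 5 held sensory ganglion markers at 773 to 2579 summed CPM, against 11.8 to 18.4 in the other set A libraries, and 45% of all genes were called between the PTX days there. The part of these markers in the set A values was not tested.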

How the data were processed

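Polyadenylated RNA from about 500 ng of total RNA was sequenced as 50 bp single reads from a stranded kit, per the labels' protocols. Reads were split with bcl2fastq, aligned to mm9 with TopHat2 and counted with HTSeq, per the submitters' processing notes; versions are not given in the sources used here. The authors deposited raw counts per gene symbol (22609 symbols), 1 table per library, and its summary lines were left out of library sizes. In the 6 libraries these lines held 21.9 to 25.3 reads outside genes and 61.5 to 67.5 multiply aligned reads for each 100 gene reads; near-identical gene copies are therefore uncertain.

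All 21 spinal cord libraries entered 1 fit with a coefficient for each of 7 groups in R 4.3.3 with edgeR 4.0.16. Genes passed filterByExpr (smallest count 10, smallest total 15), libraries were scaled by TMM, and the robust quasi-likelihood F test was adjusted by Benjamini-Hochberg over all genes. Standard errors are the size of the log2 fold change over the square root of F. A prior count of 2 entered the log2 CPM values and not the tested fold changes. CPM values use TMM-scaled library sizes. The method was tested on simulated data in which no library stood apart. That test therefore does not cover outlying libraries such as those at day 1 or day 22 replicate 1. Alternatives included DESeq2 1.42.0 and limma 3.58.1.

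The members, the 49 gene lists (630 of 653 genes tested) and the tests were chosen with earlier results of these data known. Genes named are, among called genes that averaged 1 or more on the log2 CPM scale and whose groups did not overlap, the 10 highest and the 10 lowest fold changes, the 10 called list members of smallest adjusted p and up to 4 per list, without predicted models; any others were chosen after their values were seen, among them Sgk1, Mt1 and Ddit4. The replicate numbers come from the titles. Same-numbered libraries deviated from their group means with correlations of 0.14, -0.12 and 0.079 and were not treated as pairs. Replicates of each group differed beyond sampling noise. Promoters are of another build than the counts and were matched by symbol. Some values are not reported here.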

Additional observations from a re-analysis of the deposited data

How the results depend on the processing

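The direction of the 41 genes named by the rule was the same in all 18 alternatives, while the number of calls moved with the fit. With only the 6 libraries in the fit, 4 genes were called higher and 37 lower, and with the 9 of set B 10 and 63. DESeq2 called 94 higher and 312 lower and also called 171 of the 172, and limma voom called 120 genes, 119 of them among the 172. Leaving out each library in turn gave 4 to 32 higher, 57 to 190 lower and 9 to 15 of the glucocorticoid list. Without day 1 replicates 1 and 2 together, an alternative chosen after seeing the data that leaves 1 library at day 1, assumed to vary like the other groups, 0 were called higher by edgeR (864 genes at an unadjusted p under 0.05 in both directions), 58 lower and 7 of the list. The cause was not tested. With the replicate block 133 genes were called, 131 of them among the 172. Among the 41 named genes the block lost 7 calls, DESeq2 0 and limma voom 11. The fit of the 6 libraries lost 24 of the 41 calls and the fit of the 9 lost 23. Leaving out 1 library lost 5 to 24, and the nerve root covariate, chosen after seeing the data, lost 13. Among these 13 were Opalin, Trim59, Per2, Nr4a1, Irf9, Hspa5, Pdia4, Bpifa2e and Smr3a.

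Values that reversed belonged to genes not called. Leaving out each library, Slc6a5 ranged over -4.74 to 0.52, Nos1 over -4.54 to 1.26 and Acta1 over -4.22 to 0.64, positive only without day 1 replicate 1, and without day 1 replicates 1 and 2 together they were 0.27, 1.83 and 1.38. Scaling by upper quartile moved the median of all genes to 0.02. Depth limits genes under about 1 CPM, where few reads stand behind each value.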

Other observations

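The genes named here belong to no list and were chosen after their values were seen. Those that follow were called lower at day 22. Ctla2a, a protease inhibitor gene, measured 5.62, 6.52 and 5.19 CPM at day 22, against 15.4, 23.7 and 17.5 CPM at day 1 (log2 fold change -1.71 ± 0.17, edgeR Benjamini-Hochberg adjusted p = 3.58e-05). Gimap6, a GTPase of blood and vessel cells, was -1.04 ± 0.14 and Ly6c1, a surface protein of vessel and blood cells, -0.74 ± 0.12. Klf4, a transcription factor of vessel walls, was -0.67 ± 0.11. Ctgf, a matrix factor, measured 21.4, 16.1 and 18.4 CPM at day 22, against 44.7, 123 and 52.4 CPM at day 1, with the highest value in the library rich in nerve root markers, and its log2 fold change was -1.98 ± 0.31 (edgeR adjusted p = 0.00333). Lrg1, a secreted glycoprotein gene, was -1.98 ± 0.32. Klf4 and Ctgf lost their calls with only the 6 or the 9 set B libraries in the fit, and Ly6c1 with only the 6.

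Nos2 and Mid1ip1 were called higher. Nos2, the inducible nitric oxide synthase, measured 1.72, 1.27 and 1.4 CPM at day 22, against 0.495, 0.168 and 0.507 CPM at day 1 (1.90 ± 0.36, edgeR adjusted p = 0.0129). Without day 1 replicate 2 or day 22 replicate 1 its adjusted p was 0.0677 and 0.0735. The Nos2 call was also lost with only the 6 or the 9 set B libraries in the fit and with the nerve root covariate. Its mean log2 CPM over the 6 libraries was -0.28, under the cut of 1 used for named genes, so few reads stand behind its day 1 values. Mid1ip1, a regulator of fatty acid synthesis, measured 333, 282 and 316 CPM at day 22, against 180, 230 and 229 CPM at day 1 (0.54 ± 0.09, edgeR adjusted p = 0.00455). The Mid1ip1 call was also lost with only the 6 or the 9 set B libraries in the fit.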
